A study of Mus musculus with 18 samples.

Results

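The 10 genes described here encode the sensors of the unfolded protein response (UPR) and the transcription factors that these sensors release. The group holds Ern1, Eif2ak3, Atf6 and Atf6b (the sensors), Mbtps1 and Mbtps2 (the proteases that cut ATF6 free), Xbp1, Creb3 and Creb3l2 (transcription factors) and Tbl2 (a PERK partner). They were taken by name from 17208 genes with reads, of which 7794 had reads in all 18 libraries and were tested. All 10 passed that filter. The naming rule uses no measured value, but the genes were chosen with earlier results of these data known. The cells were MIN6, a mouse insulinoma line that keeps many features of pancreatic β-cells. They received the solvent DMSO for 18 h (control), or 200 µM cyclopiazonic acid (CPA), which blocks the SERCA pump that fills the endoplasmic reticulum (ER) with calcium, for 1 h (CPA1) or 18 h (CPA18). Each of 3 independent experiments gave an mRNA-seq and a Ribo-seq library per treatment. MIN6 is a single transformed line grown without the other cells of the islet, and CPA1 has no solvent control of its own length.

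The UPR has 3 arms, each started by a protein that spans the ER membrane. IRE1α, the product of Ern1, is a kinase and RNase that cuts a short intron out of Xbp1 mRNA in the cytosol, and the joined mRNA encodes the active factor XBP1s. PERK, the product of Eif2ak3, phosphorylates eIF2α and so slows most translation while ATF4 is made. ATF6 leaves the ER under stress for the Golgi, where the site-1 and site-2 proteases (S1P and S2P, the products of Mbtps1 and Mbtps2) cut it and free a transcription factor. Creb3 and Creb3l2 encode relatives that are freed in the same way. β-Cells, which fold large amounts of proinsulin, depend on these sensors for their survival.

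The cut made by IRE1α separates the transcripts of Xbp1 that were counted apart, so the sequence around it is shown. Both come from the RefSeq annotation of GRCm38.p6, on the plus strand at chr11:5524259-5524324, and capitals mark the 26 bases that IRE1α removes (chr11:5524279-5524304, in exon 4 of 5). The intron begins at coding base 479. The unspliced transcript encodes 267 amino acids and the spliced transcript 371.
Xbp1 unspliced: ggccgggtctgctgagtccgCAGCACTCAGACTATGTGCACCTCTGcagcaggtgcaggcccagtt
Xbp1 spliced: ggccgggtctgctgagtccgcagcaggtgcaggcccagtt
RefSeq places the same gap 1 base earlier, from 5524278 to 5524303, which gives the identical joined sequence. The transcripts are 2264 and 2238 bases long and differ only here. Of all 28-base stretches, about the length of a footprint, 2.12% of those in the unspliced and 0.957% of those in the spliced transcript occur in no other form. At 15 bases, the shortest reads kept, these shares were 1.52% and 0.362%, and at 40 bases, the longest, 2.67% and 1.51%.

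Promoters were read for the members because 7 of them moved together at 18 h. The RefSeq windows (250 bases before to 50 bases after the annotated start, GRCm38.p6) covered 9 members. Each of these had 1 window, so other starts were not read. For some, such as Tbl2 and Eif2ak3, the start used lies inside the gene bounds given below. The factors of the UPR are known to bind ERSE (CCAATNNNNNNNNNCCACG), ERSE-II (ATTGGNCCACG) and the UPRE core (TGACGTGG), and related factors bind CRE (TGACGTCA) and CARE (TGATGNAAT). None of these 5 motifs occurred on either strand in the window of a member. Across all 32851 windows they were held by 0.119% (ERSE), 0.0365% (ERSE-II), 0.676% (UPRE core), 1.79% (CRE) and 0.965% (CARE), so no match says only that these letters are not in these windows. After that search, the shorter cores CCAAT (either strand, part of ERSE) and ACGT (a palindrome, part of UPRE and CRE) were looked for, and capitals mark them in the 3 windows shown. Eif2ak3 is shown for its 6 copies of CCAAT, which reads as ATTGG where it lies on the minus strand, and Xbp1 and Creb3 as the members with ACGT before the start and the highest mRNA-seq levels.
Eif2ak3 promoter, chr6:70844265-70844564, plus strand: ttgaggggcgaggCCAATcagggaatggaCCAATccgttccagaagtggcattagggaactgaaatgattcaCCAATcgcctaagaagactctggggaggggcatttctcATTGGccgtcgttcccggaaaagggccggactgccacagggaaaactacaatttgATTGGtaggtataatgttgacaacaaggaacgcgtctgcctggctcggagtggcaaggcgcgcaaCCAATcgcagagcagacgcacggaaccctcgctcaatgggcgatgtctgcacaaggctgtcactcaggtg
Xbp1 promoter, chr11:5520391-5520690, plus strand: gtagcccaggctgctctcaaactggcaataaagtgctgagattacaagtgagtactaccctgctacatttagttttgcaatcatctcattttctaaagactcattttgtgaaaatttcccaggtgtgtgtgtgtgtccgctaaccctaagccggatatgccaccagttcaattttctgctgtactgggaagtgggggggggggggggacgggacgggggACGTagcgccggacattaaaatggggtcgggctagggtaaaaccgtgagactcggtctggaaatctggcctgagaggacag
Creb3 promoter, chr4:43562408-43562707, plus strand: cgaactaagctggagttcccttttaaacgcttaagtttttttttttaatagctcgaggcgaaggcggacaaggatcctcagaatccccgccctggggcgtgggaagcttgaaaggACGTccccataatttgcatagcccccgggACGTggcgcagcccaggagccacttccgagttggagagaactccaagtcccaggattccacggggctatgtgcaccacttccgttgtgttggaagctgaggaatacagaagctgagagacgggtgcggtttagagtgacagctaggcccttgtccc
Windows with at least 6 copies of CCAAT made up 0.0791% of all windows, and windows with any copy 37.4%. Those with at least 2 copies of ACGT, as in Creb3, made up 6.78%, and those with at least 1, as in Xbp1, 30.9%. A match is a description of the sequence and not a bound site.

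Total counts ran from 520960 to 4755030 per mRNA-seq library (median 1644598) and from 168129 to 1083297 per Ribo-seq library (median 519309). A single gene, Lars2, took 45.1 to 54.8% of the mRNA-seq reads in the 3 libraries of experiment 1 and 38.1% in CPA1 of experiment 2, against 4.75 to 15.1% in the other 5. RPKM divides by totals that include Lars2, so a high Lars2 share lowers the levels of all other genes in that library. With library totals as the scale, the median of all tested genes lay at a log2 fold change of 0.36 (mRNA-seq) and 0.39 (Ribo-seq) in CPA18 against control, and at -0.08 and 0.03 with TMM scaling. The share of called genes that were raised was 77.1% and 79.5% with library totals and 42.7% and 48.3% with TMM, so changes are also given relative to the median gene. All 9 β-cell markers had reads in all 18 libraries, the acinar, duct, fibroblast and macrophage markers summed to at most 1.52 RPKM in any library, and of the other islet hormones only Gcg had reads in all 18 (all 4 together 23.8 to 241 RPKM). The control libraries of experiment 2 carry descriptions that name the other assay. They were placed by their titles, which name the same assays as the headings of the deposited counts. Lars2 took 7.19% of reads in that mRNA-seq control. In that Ribo-seq control it took 0.083%, against 0.363 to 3.51% in the other Ribo-seq libraries. Log2 levels in the control mRNA-seq library of experiment 2 correlated across genes with a mean r of 0.918 with the other mRNA-seq controls and 0.812 with the Ribo-seq controls, and its Ribo-seq partner with 0.965 and 0.845 in the reverse order.

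Before stress the members covered a wide range of levels, measured as RPKM, reads per kilobase of transcript scaled to the library's total. In control mRNA-seq the means were 101 ± 46.7 for Xbp1, 64.3 ± 30.5 for Creb3, 52.8 ± 21.2 for Atf6b, 16.98 ± 4.82 for Ern1 and 12.96 ± 4.67 for Mbtps1 (RPKM, SD, n = 3). Below them came Tbl2 with 8.03 ± 1.49, Creb3l2 with 4.51 ± 0.115, Eif2ak3 with 3.60 ± 1.94, Mbtps2 with 2.19 ± 1.33 and Atf6 with 1.25 ± 1.19. Neighbours in this order overlapped between libraries except Atf6b above Ern1 and Tbl2 above Creb3l2, whose libraries did not. Xbp1 stood at percentile 91.7 of the tested genes and Atf6 at percentile 5.05. The order by Ribo-seq RPKM was Creb3 (73.7 ± 16.7), Atf6b (62.4 ± 2.72), Xbp1 (55.1 ± 8.66), Ern1 (36.3 ± 10.2), Creb3l2 (12.3 ± 0.706), Mbtps1 (5.52 ± 1.39), Eif2ak3 (5.32 ± 0.949), Mbtps2 (4.16 ± 1.46), Tbl2 (3.76 ± 0.841) and Atf6 (3.63 ± 0.175). Here the libraries of Ern1 lay above those of Creb3l2, and those of Creb3l2 above those of Mbtps1, and all other neighbours overlapped. RPKM divides by the whole transcript, which is 7463 bases for Atf6 and 1559 for Creb3, and footprints lie mostly in the coding part.

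**Figure D1:**
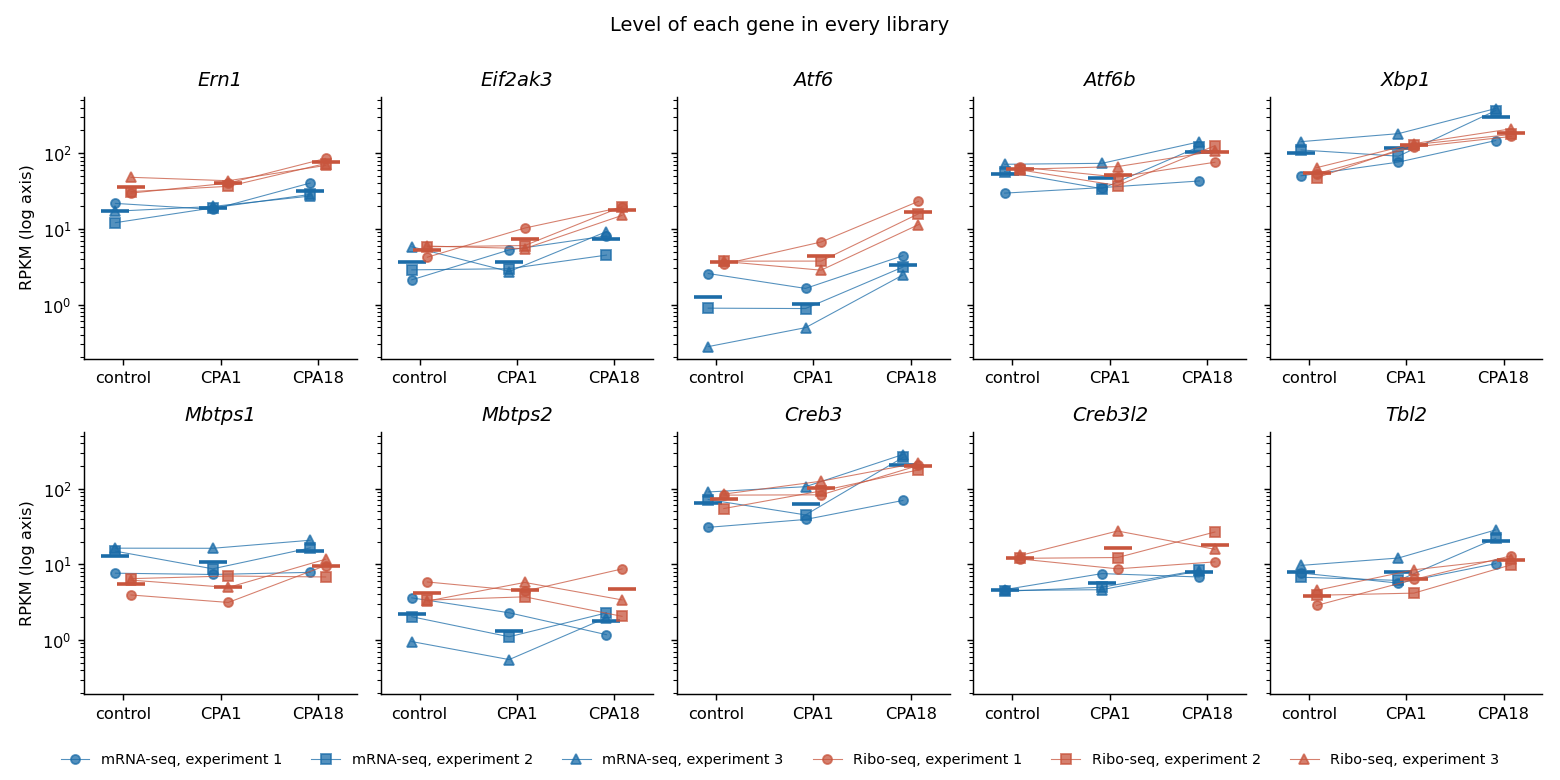
Levels of the 10 genes in every library, in RPKM on a log axis, by treatment (control, CPA1, CPA18), with mRNA-seq in blue, Ribo-seq in red, lines joining the libraries of an experiment and thick bars at the means of 3 libraries. The CPA18 points of Xbp1, Creb3 and Atf6 lie above their control points of the same experiment in both assays, whereas those of Mbtps2 overlap.

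After 18 h of CPA, 7 of the 10 genes rose in mRNA-seq (Ern1, Eif2ak3, Atf6, Atf6b, Xbp1, Creb3 and Tbl2) and none fell, by edgeR's quasi-likelihood test with Benjamini-Hochberg adjustment and the experiment as a block. Over all tested genes, 25.9% rose and 7.69% fell in this comparison. The same 7 genes rose in Ribo-seq, where 24.6% of all genes rose and 6.35% fell. The 10 genes had median log2 fold changes of 1.01 (mRNA-seq) and 1.24 (Ribo-seq), beside 0.36 and 0.39 over all genes. In mRNA-seq, 8 of the 10 exceeded the median gene in all 3 experiments, as did 29.9% of all genes, and in Ribo-seq 6 did, as did 24.9%. The mRNA-seq calls depended on the block. Without it none of the 10 passed in mRNA-seq (1.98% of all genes), whereas all 7 passed in Ribo-seq (25.1% of all genes). In mRNA-seq without the block, 5 of the 10 had an unadjusted p under 0.05, beside 1501 of all 7794 tested genes. Without experiment 3, only Xbp1 and Creb3 passed in mRNA-seq, and with TMM scaling Atf6, Xbp1, Creb3 and Tbl2 did. In cultures measured in bulk, fewer cells that hold an mRNA and less of it per cell cannot be told apart.

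After 1 h, 1 of the 10 genes had changed, Xbp1 in Ribo-seq. None of the 10 passed in mRNA-seq (none at an unadjusted p under 0.05, and none by limma or DESeq2), where 0.449% of all genes rose and 0.269% fell. In Ribo-seq, Xbp1 alone rose, among 3.72% of all genes that rose and 2.78% that fell, and it was also called without the block, where 2.96% of all genes passed. Creb3 (log2 fold change 0.45, adjusted p = 0.212) and Tbl2 (0.73, adjusted p = 0.244) had higher Ribo-seq levels in all 3 experiments without passing. With Xbp1 these were 3 of the 10, beside 20.8% of all genes. Only 1 of the 10 exceeded the median gene in all 3 experiments, beside 19.0% of all genes. At 1 h the 10 genes had medians of 0.00 (mRNA-seq) and 0.24 (Ribo-seq), beside -0.12 and 0.07 over all genes. CPA1 and CPA18 share their control libraries, so these comparisons are not independent.

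**Figure D2:**
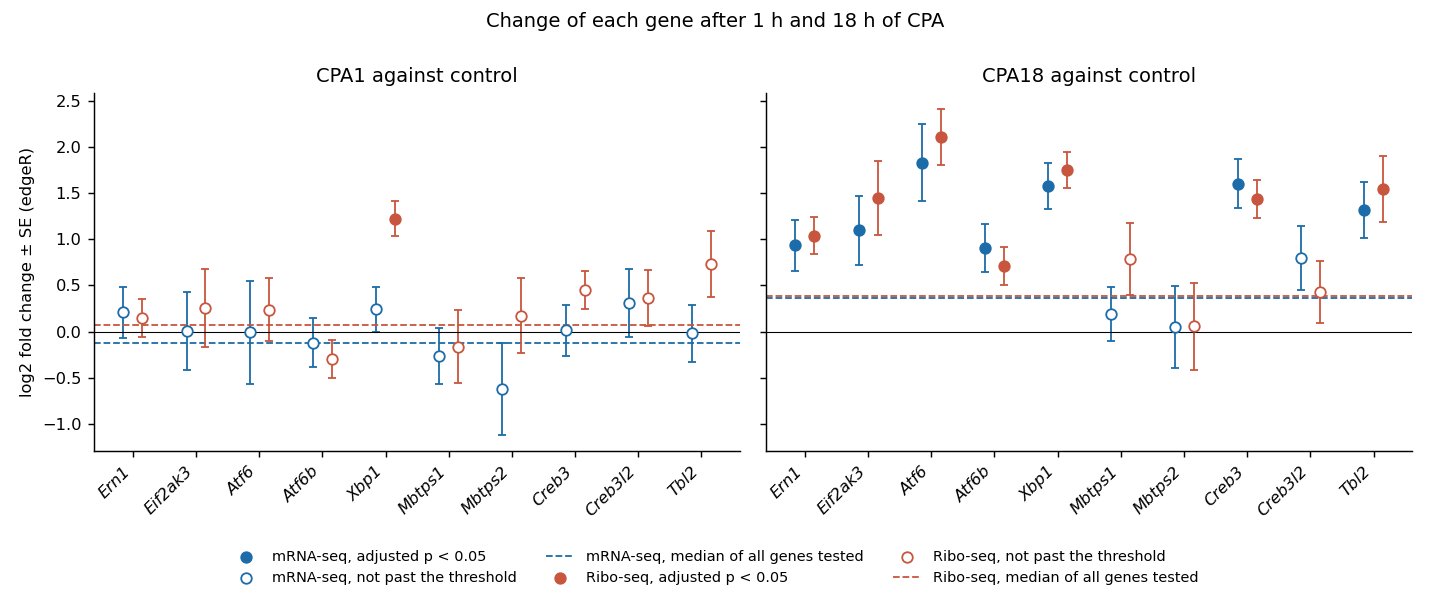
Log2 fold changes ± SE from edgeR for the 10 genes in CPA1 (left) and CPA18 (right) against control, with mRNA-seq in blue, Ribo-seq in red, filled points for an adjusted p under 0.05 and dashed lines at the median of all tested genes. At 1 h only the Ribo-seq point of Xbp1 is filled (1.22), and at 18 h 7 genes are filled in both assays.

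Among the sensors, Ern1 (chr11:106397620-106487796) encodes the RNase that splices Xbp1. Its mRNA-seq levels in experiments 1, 2 and 3 were 21.7, 12.1 and 17.1 RPKM in control, 18.1, 19.0 and 19.8 in CPA1 and 40.3, 28.5 and 27.1 in CPA18. The lowest CPA18 library lay above the highest control library. At 18 h the mRNA-seq level rose 1.91-fold (log2 fold change 0.93 ± 0.28 SE, adjusted p = 0.0058, without the block 0.267), which was 0.57 above the median gene. With TMM the value was 0.54 (adjusted p = 0.098). Ribo-seq levels of 29.7, 31.1 and 48.1 RPKM in control and 40.2, 36.5 and 43.3 in CPA1 stood against 85.3, 73.1 and 69.0 in CPA18, again without overlap at 18 h, and the Ribo-seq level then rose 2.05-fold (log2 fold change 1.04 ± 0.20 SE, adjusted p = 7.73e-06).

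Eif2ak3 (chr6:70844484-70905241), the gene of PERK, was read less deeply, with 5 to 71 reads per library. Its mRNA-seq levels were 2.12, 2.87 and 5.80 RPKM in control, 5.27, 2.98 and 2.73 in CPA1 and 8.08, 4.50 and 9.20 in CPA18. The control library of experiment 3 lay above the CPA18 library of experiment 2, so the groups overlapped in RPKM, although CPA18 was higher within each experiment. These levels add the RPKM of 2 transcripts of 965 and 4519 bases, so a read on the shorter one weighs more. The test used the summed counts, which do not carry this weight. The mRNA-seq rise was 2.14-fold (log2 fold change 1.09 ± 0.38 SE, adjusted p = 0.018, without the block 0.187), and it was not called with TMM (0.64, adjusted p = 0.17) or without experiment 3 (adjusted p = 0.147). Ribo-seq levels of 4.23, 5.80 and 5.93 RPKM in control and 10.3, 6.02 and 5.49 in CPA1 all lay below the 19.3, 19.7 and 15.1 of CPA18. The Ribo-seq rise was 2.73-fold (log2 fold change 1.45 ± 0.40 SE, adjusted p = 0.00243), while DESeq2 gave 1.11 with an adjusted p of 0.101.

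Atf6 (chr1:170704457-170868585) had the lowest control levels of the group and the largest fold at 18 h among the 10 genes in both assays. In mRNA-seq its levels were 2.57, 0.896 and 0.278 RPKM in control, from 10, 11 and 5 reads, 1.63, 0.886 and 0.495 in CPA1 and 4.42, 3.13 and 2.46 in CPA18, from 41, 111 and 33 reads. Control of experiment 1 lay just above CPA18 of experiment 3, so the groups overlapped by these 2 libraries. The mRNA-seq rise was 3.55-fold (log2 fold change 1.83 ± 0.42 SE, adjusted p = 0.000309, without the block 0.158, without experiment 3 0.0722). Footprints separated the groups clearly, with 3.43, 3.75 and 3.71 RPKM in control, 6.71, 3.75 and 2.85 in CPA1 and 23.1, 15.8 and 11.4 in CPA18. The Ribo-seq rise was 4.30-fold (log2 fold change 2.10 ± 0.30 SE, adjusted p = 4.25e-10), called under all 14 alternatives tried.

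Atf6b (chr17:34647146-34655074) encodes the second ATF6 protein, described as the weaker activator. Its mRNA-seq levels were 29.7, 57.1 and 71.5 RPKM in control, 35.1, 33.99 and 73.5 in CPA1 and 43.0, 123 and 142 in CPA18. Groups overlapped because all libraries of experiment 1 were low, and CPA18 was the highest library of each experiment. The mRNA-seq rise was 1.88-fold (log2 fold change 0.91 ± 0.26 SE, adjusted p = 0.004, without the block 0.339, without experiment 3 0.133). In Ribo-seq the levels were 65.5, 60.3 and 61.4 RPKM in control, 48.4, 37.4 and 66.6 in CPA1 and 76.0, 126 and 106 in CPA18. All CPA18 libraries lay above all others, a 1.64-fold rise over control (log2 fold change 0.71 ± 0.21 SE, adjusted p = 0.00371). This rise lay 0.32 above the median gene and was not called with TMM (0.35, adjusted p = 0.204). In experiment 1 the log2 change of Atf6b, 0.21, lay below the 0.46 of the median gene. Atf6 thus had a log2 fold change 1.83 to 2.10 where Atf6b had 0.91 and 0.71. A test of that difference between genes was not run.

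Xbp1 (chr11:5520641-5525993) had the highest mRNA-seq level of the group. Experiments 1, 2 and 3 gave 50.3, 110 and 142 RPKM in control, 76.3, 91.4 and 181 in CPA1 and 147, 366 and 389 in CPA18. All CPA18 libraries exceeded all control libraries, by a narrow margin for experiment 1, while CPA1 exceeded the control range in experiment 3 only. At 18 h the mRNA-seq level rose 2.99-fold (log2 fold change 1.58 ± 0.25 SE, adjusted p = 2.12e-07, without the block 0.15, 1.22 above the median gene). At 1 h it was 0.24 ± 0.25 SE (adjusted p = 0.99, 95% interval -0.25 to 0.72).

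Footprints on Xbp1 were already higher at 1 h. Ribo-seq levels were 53.5, 47.3 and 64.4 RPKM in control, 121, 130 and 134 in CPA1 and 167, 177 and 210 in CPA18, and the 3 treatments did not overlap. The rise at 1 h was 2.33-fold (log2 fold change 1.22 ± 0.19 SE, adjusted p = 3.22e-08, without the block 0.000293), with per-experiment values of 1.17, 1.46 and 1.06. limma on log2 RPKM did not call it, nor did edgeR when the control assays of experiment 2 were exchanged (0.80). At 18 h the rise was 3.36-fold (log2 fold change 1.75 ± 0.19 SE, adjusted p = 2.72e-16, with that exchange 1.32 and 0.0587). From 1 h to 18 h the Ribo-seq level went up by 0.53 ± 0.19 SE (adjusted p = 0.0308), which was not called without the block (0.0712) or with TMM (0.21, adjusted p = 0.492).

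Ribosome occupancy, the Ribo-seq RPKM divided by the mRNA-seq RPKM of the same experiment, brought both assays of Xbp1 together. Control gave ratios of 1.06, 0.428 and 0.453, CPA1 of 1.58, 1.42 and 0.739 and CPA18 of 1.13, 0.483 and 0.540. In each experiment CPA1 was the highest of the 3, although the groups overlapped because experiment 1 was high throughout. This order rests on placing the experiment 2 controls by their titles and by the headings of the deposited counts. With their assays exchanged, as their descriptions have it, the control ratio of experiment 2 is inverted and lies above its CPA1 ratio, and the log2 change at 1 h is 0.19 (adjusted p = 0.877). With the controls as placed, the occupancy of the median gene changed at 1 h by 0.37, 0.39 and -0.23 in experiments 1, 2 and 3. Lars2 took 45.1% of control and 53.5% of CPA1 mRNA-seq reads in experiment 1. These shares were 7.19% and 38.1% in experiment 2 and 15.1% and 8.27% in experiment 3. Whether they bear on the occupancy changes was not tested. For Xbp1 the log2 change at 1 h was 0.99 ± 0.31 SE (unadjusted p = 0.0023, 95% interval 0.38 to 1.60), with per-experiment values of 0.57, 1.73 and 0.71. By edgeR's interaction test it did not pass (adjusted p = 0.302, without the block 1.00), whereas DESeq2 gave 0.89 with an adjusted p of 0.0489. At 18 h the change against control was 0.17 ± 0.31 SE (adjusted p = 0.925).

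**Figure D3:**
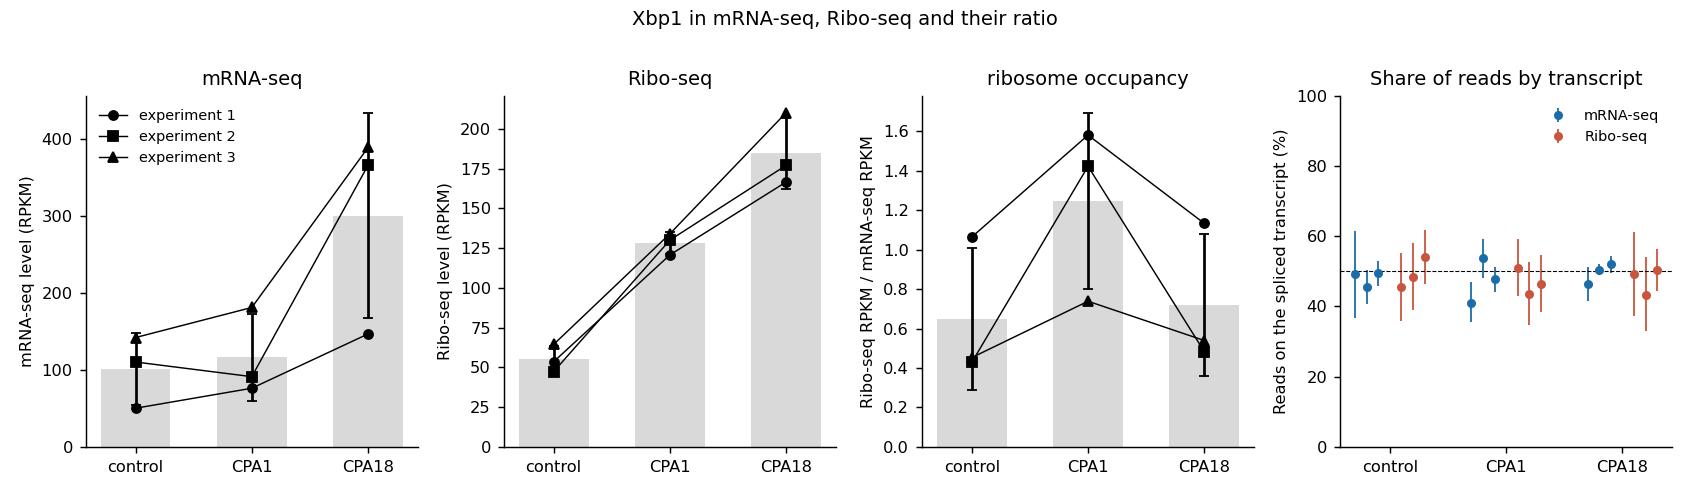
Xbp1 in control, CPA1 and CPA18, as mRNA-seq RPKM, Ribo-seq RPKM and their ratio (grey bars and error bars give the mean ± SD of 3 experiments, symbols the experiments), and the percentage of Xbp1 reads counted on the spliced transcript with Wilson 95% intervals and a dashed line at 50%. With the experiment 2 controls placed by their titles, occupancy peaks at CPA1 in each experiment (not in experiment 2 if their assays are exchanged), and the share of reads stays between 41.1 and 54.1%.

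The table of counts lists the unspliced and spliced Xbp1 transcripts apart, and the share of reads on the spliced transcript did not separate the treatments. The mRNA-seq libraries averaged 48.0% ± 2.20 in control, 47.5% ± 6.28 in CPA1 and 49.6% ± 2.84 in CPA18 (SD, n = 3), and the Ribo-seq libraries 49.4% ± 4.41, 47.0% ± 3.82 and 47.6% ± 3.85. Two-sided exact permutation tests of the 6 differences gave p from 0.5 to 1 (adjusted p = 1 for each), where 0.1 is the smallest p that 3 libraries against 3 allow. The Wilson 95% interval, which covers counting error only, included 50% in 17 of 18 libraries. The exception was CPA1 mRNA-seq of experiment 1, with 41.1% (35.5 to 47.0%) of 282 reads. As the sequences above show, nearly all stretches of read length are common to both forms. Few reads can tell them apart, so the share is not read here as a measure of splicing. For the same reason, the values per transcript below mostly repeat the result of the gene. They are not read as changes of either form alone. Per transcript, the Ribo-seq rise at 1 h was 1.14 for the spliced and 1.29 for the unspliced form (2.79% of 10163 transcripts rose), and that at 18 h was 1.69 and 1.80 (21.0% rose), all called. In mRNA-seq at 18 h both were called as well, with 1.64 and 1.51 (26.1% rose), and neither was without the block (adjusted p = 0.14 and 0.158).

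The proteases that cut ATF6 did not pass in any comparison with control. Mbtps1 (chr8:119508151-119558864), the gene of S1P, had mRNA-seq levels of 7.63, 14.9 and 16.3 RPKM in control, 7.33, 8.71 and 16.3 in CPA1 and 7.83, 16.4 and 20.8 in CPA18. The treatments overlapped, and the libraries of experiment 1 were low under each. Ribo-seq levels were 3.93, 6.46 and 6.18 RPKM in control, 3.13, 7.00 and 4.94 in CPA1 and 9.63, 6.80 and 11.7 in CPA18, where each CPA18 library exceeded all controls. The log2 fold change at 18 h was 0.19 ± 0.30 SE in mRNA-seq (95% interval -0.39 to 0.77, adjusted p = 0.655) and 0.79 ± 0.39 SE in Ribo-seq (0.03 to 1.55, adjusted p = 0.109). Relative to the median gene these were -0.17 and 0.40. Mbtps2 (chrX:157547822-157598715), the gene of S2P, had as few as 2 footprints in a library. Its mRNA-seq levels were 3.60, 2.03 and 0.952 RPKM in control, 2.29, 1.10 and 0.550 in CPA1 and 1.17, 2.28 and 1.97 in CPA18, with the experiments in opposite directions at 18 h. Ribo-seq levels of 5.84, 3.36 and 3.27 RPKM in control, 4.42, 3.72 and 5.76 in CPA1 and 8.68, 2.05 and 3.39 in CPA18 overlapped throughout. The log2 fold change at 18 h was 0.05 ± 0.44 SE in mRNA-seq (95% interval -0.83 to 0.92) and 0.06 ± 0.47 SE in Ribo-seq (-0.87 to 0.98), or -0.32 and -0.33 relative to the median gene, so a change of nearly 2-fold either way could not be seen at this depth.

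Creb3 (chr4:43562658-43567061), also known as Luman, encodes an ER-bound factor cut by the same proteases. Its mRNA-seq levels were 30.8, 71.8 and 90.3 RPKM in control, 39.1, 44.9 and 106 in CPA1 and 69.7, 258 and 282 in CPA18. The CPA18 library of experiment 1 lay within the control range and the other CPA18 libraries far above it. Divided by the RPKM of the median gene, CPA18 gave 8.84, 19.8 and 21.0, against 3.72, 7.88 and 10.6 in control. At 18 h the mRNA-seq level rose 3.03-fold (log2 fold change 1.60 ± 0.27 SE, adjusted p = 8.85e-07, without the block 0.152, 1.24 above the median gene). In Ribo-seq, 82.0, 54.5 and 84.7 RPKM in control stood against 82.8, 93.1 and 125 in CPA1 and 202, 177 and 219 in CPA18. The CPA18 libraries lay above all others, and the Ribo-seq rise was 2.70-fold (log2 fold change 1.44 ± 0.21 SE, adjusted p = 4.22e-10), called under all 14 alternatives.

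Creb3l2 (chr6:37327255-37442276), also known as BBF2H7, encodes a factor best known for the secretory pathway of cartilage. Its mRNA-seq levels were even among controls, at 4.63, 4.40 and 4.51 RPKM, and were 7.53, 4.98 and 4.62 in CPA1 and 6.79, 8.37 and 8.21 in CPA18. Every CPA18 library exceeded every control library. The test gave 0.79 ± 0.35 SE on the log2 scale (adjusted p = 0.0679), and with library totals without Lars2, an alternative added after the data were seen, 0.77 with an adjusted p of 0.0407. Ribo-seq levels of 11.7, 11.996 and 13.1 RPKM in control, 8.71, 12.3 and 27.5 in CPA1 and 10.8, 26.7 and 15.8 in CPA18 overlapped (CPA18 against control log2 fold change 0.43 ± 0.33 SE, adjusted p = 0.35).

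Tbl2 (chr5:135149429-135163873) encodes an ER membrane protein known to bind PERK under stress. Its mRNA-seq levels were 7.66, 6.75 and 9.67 RPKM in control, 5.64, 6.12 and 12.1 in CPA1 and 10.2, 21.998 and 28.5 in CPA18. All CPA18 libraries lay above all controls, that of experiment 1 by little. At 18 h the mRNA-seq level rose 2.50-fold (log2 fold change 1.32 ± 0.30 SE, adjusted p = 0.000328, without the block 0.165, without experiment 3 0.0619). Ribo-seq levels were 2.86, 3.90 and 4.53 RPKM in control, 6.30, 4.16 and 8.46 in CPA1 and 12.98, 9.86 and 11.8 in CPA18. CPA18 lay above all other libraries, and the rise over control was 2.91-fold (log2 fold change 1.54 ± 0.36 SE, adjusted p = 0.000208), from 9 to 36 reads per library.

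Ribosome occupancy did not pass for any of the 10 genes in any comparison by edgeR's interaction test. Genes that passed made up 0.0898% of all tested at 1 h, 0.462% at 18 h against control and 0.0770% at 18 h against 1 h. Xbp1 was the only member with an unadjusted p under 0.05 at 1 h and between 1 h and 18 h (-0.82 ± 0.31 SE, adjusted p = 0.798). No member had one at 18 h against control. Of all 7794 tested genes, 549 had such a p at 1 h, 443 between 1 h and 18 h and 702 at 18 h against control. DESeq2 called Xbp1 at 1 h only, and limma none. Mean occupancy in control ran from 0.442 ± 0.0688 for Mbtps1, 0.473 ± 0.102 for Tbl2 and 0.649 ± 0.360 for Xbp1 to 2.25 ± 0.772 for Ern1 and 2.72 ± 0.182 for Creb3l2 (SD, n = 3). All neighbours in the order of control occupancy overlapped between libraries. The highest mean, 6.28 ± 6.27 for Atf6, rested on 1.33, 4.18 and 13.3 in the 3 experiments, the last from 5 mRNA-seq reads. In CPA18 the occupancy of Atf6 was 5.23, 5.06 and 4.62. The median log2 change of the 10 genes was 0.24 at 1 h and 0.15 at 18 h, beside 0.16 and 0.03 over all genes. The SE of these changes, 0.31 for Xbp1 to 0.81 for Mbtps2 at 18 h, sets what could be seen.

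Between 1 h and 18 h, the 7 genes that rose against control also rose in mRNA-seq against CPA1, where 31.9% of all genes rose and 5.54% fell. Without the block none of the 10 passed, while 1.77% of all genes did. In that fit 5 of the 10 had an unadjusted p under 0.05, beside 1616 of all 7794 tested genes. The log2 fold changes ran from 0.73 ± 0.27 SE for Ern1 (0.21 and adjusted p = 0.531 with TMM) to 1.84 ± 0.40 SE for Atf6 (1.31 and 0.0122). In Ribo-seq 6 rose, all of these but Tbl2, where 17% of all genes rose and 5.52% fell. Without the block 4 remained called (Ern1, Atf6, Atf6b and Creb3; 18.1% of all genes). Atf6 had the highest value here too (1.87 ± 0.33 SE, adjusted p = 4.41e-07), and Xbp1 the lowest of those called. The 10 genes had medians of 1.06 (mRNA-seq) and 0.92 (Ribo-seq), beside 0.48 and 0.31 over all genes. Of all called genes, 85.2% were raised in mRNA-seq and 75.5% in Ribo-seq, and with TMM 43.1% and 46.5%.

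**Figure D4:**
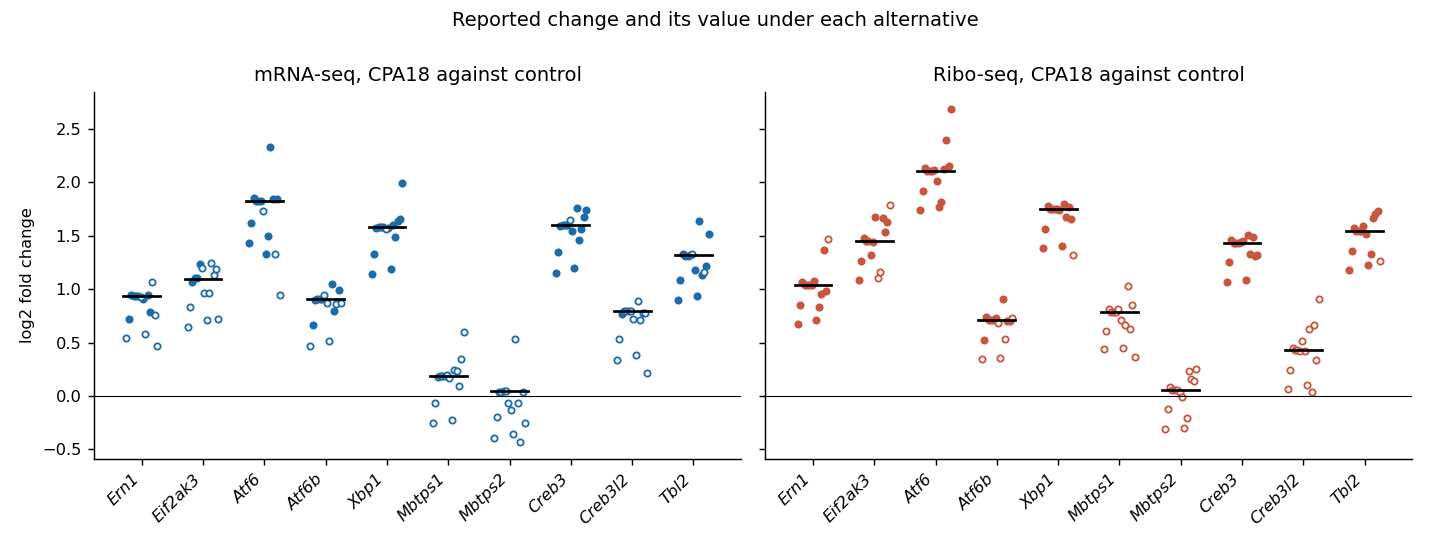
Log2 fold change of CPA18 against control for the 10 genes as reported (black bar) and under each of 14 alternatives (points, filled where the adjusted p is under 0.05), for mRNA-seq (left) and Ribo-seq (right). Atf6 and Creb3 are filled throughout in Ribo-seq, whereas in mRNA-seq all 7 called genes lose the call under at least 1 alternative.

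The genes that these sensors control were read from lists written from general knowledge, but with earlier results of these data known. ATF6 targets, mostly chaperones and ER-associated degradation genes, rose for 12 of 13 in mRNA-seq (2 without the block) and 13 of 13 in Ribo-seq at 18 h, where 25.9% (1.98% without the block) and 24.6% of all genes rose. The medians of the list were 1.74 and 1.43 on the log2 scale, beside 0.36 and 0.39 over all genes. Derl3, part of the channel that exports misfolded proteins, rose 10.1-fold in mRNA-seq (log2 fold change 3.33 ± 0.37 SE) and 8.17-fold in Ribo-seq, with as few as 2 reads in a library. Herpud1, another gene of ER-associated degradation, rose 7.21-fold and 7.33-fold, and Creld2, an ER-resident stress protein, 4.21-fold and 2.70-fold. At 1 h, Herpud1 was the only target that rose (Ribo-seq 2.66-fold), while Hsp90b1 and Pdia4, a chaperone and a disulfide isomerase, fell in Ribo-seq by 0.58 and 0.52 on the log2 scale, though not without the block. Of the list's genes, Hsp90b1 did not pass in mRNA-seq at 18 h (0.48, adjusted p = 0.122).

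XBP1s targets, which serve translocation, traffic and degradation at the ER, rose for 16 of 18 in mRNA-seq (none of the 18 without the block) and 18 of 18 in Ribo-seq at 18 h, beside 25.9% and 24.6% of all genes. The medians were 1.27 and 1.13, beside 0.36 and 0.39. The largest in mRNA-seq were Dnajb9, an ER co-chaperone that restrains IRE1α, with 3.59-fold in mRNA-seq and 2.17-fold in Ribo-seq, Syvn1, a ubiquitin ligase of the ER, with 3.57-fold and 2.50-fold, and Sec61a1, the core of the translocon, with 2.999-fold and 2.06-fold. In Ribo-seq others of the list ranked higher, led by Serp1, which binds the translocon, at 2.03 on the log2 scale. At 1 h none of these 18 rose in either assay and 1, Ssr1, fell in Ribo-seq by 0.50 on the log2 scale, though not without the block. At that time the footprints on Xbp1 itself had risen.

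Genes of the PERK arm, downstream of eIF2α and ATF4, had the highest medians of the lists at 18 h, 3.09 in mRNA-seq and 3.58 in Ribo-seq, beside 0.36 and 0.39 over all genes. At 18 h 12 of 14 rose in mRNA-seq (10 without the block) and 13 of 14 in Ribo-seq, where 25.9% and 24.6% of all genes rose. Trib3, an inhibitor of AKT, rose 38.8-fold and 36.3-fold, Ppp1r15a, which directs the dephosphorylation of eIF2α, 24.0-fold and 27.5-fold, and Ddit3, the gene of CHOP, 21.8-fold and 69.0-fold. The lowest count in a library was 10 reads for Trib3, 12 for Ppp1r15a and 1 for Ddit3, so the size of these folds is uncertain. At 1 h, 4 had risen in mRNA-seq (Atf4, Ddit3, Trib3 and Chac1; none without the block) and 8 in Ribo-seq, beside 0.449% and 3.72% of all genes, and Ddit3 rose 17.1-fold in Ribo-seq. The gene of PERK itself did not pass at 1 h (0.01 ± 0.42 SE in mRNA-seq and 0.25 ± 0.42 SE in Ribo-seq on the log2 scale).

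**Figure D5:**
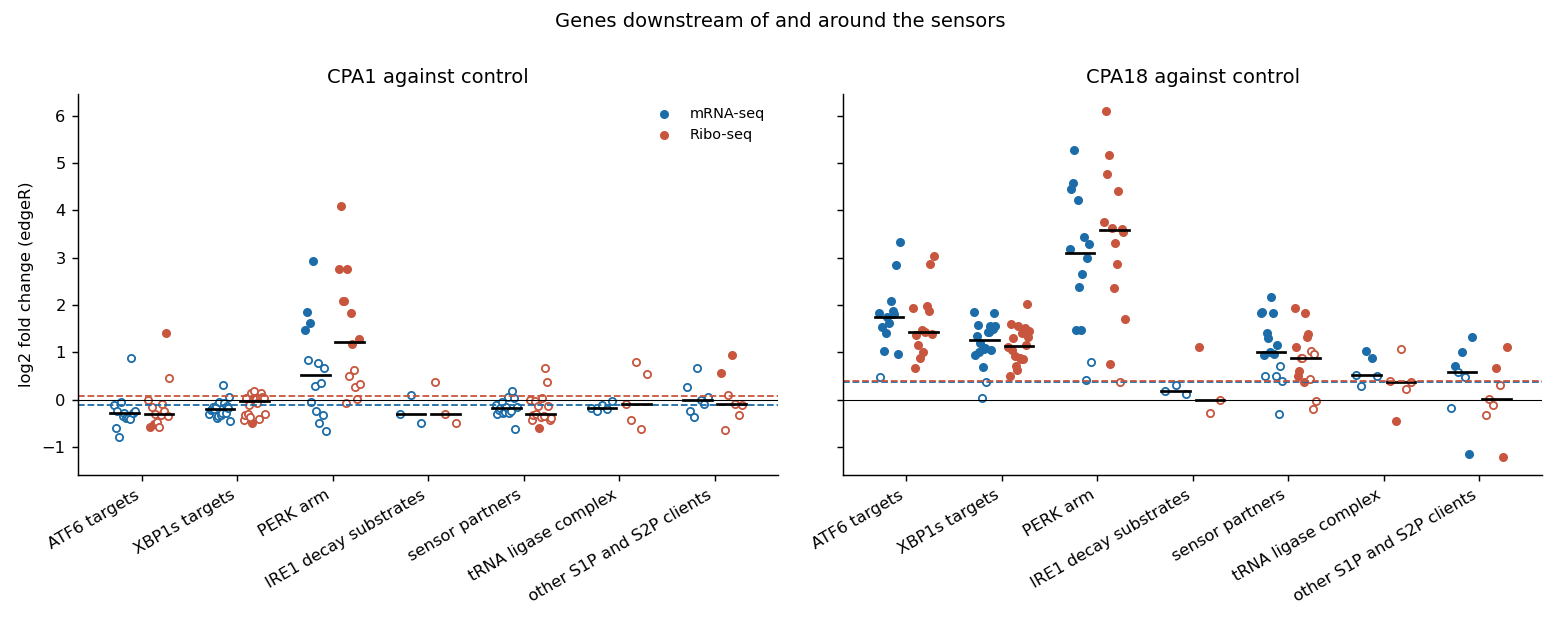
Log2 fold changes of the listed genes in CPA1 (left) and CPA18 (right) against control, with 1 point per tested gene, mRNA-seq in blue, Ribo-seq in red, filled points for an adjusted p under 0.05, black bars at the median of each list and dashed lines at the median of all tested genes. At 1 h the PERK arm holds most filled points, and at 18 h the ATF6 and XBP1s targets are filled as well.

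The remaining lists cover what the sensors touch, and are read against the 25.9% of all genes that rose and 7.69% that fell in mRNA-seq at 18 h, and the 24.6% and 6.35% in Ribo-seq, with medians over all genes of 0.36 and 0.39. Genes of partners that bind or regulate the sensors rose for 10 of 15 in mRNA-seq (1 without the block) and 9 of 15 in Ribo-seq at 18 h, with medians of 1.01 and 0.88. This list shares 6 genes with the target lists. The largest in mRNA-seq was Wfs1, the Wolfram syndrome gene and a regulator of ATF6 in β-cells, with 4.48-fold in mRNA-seq (adjusted p = 6.23e-11) and 3.55-fold in Ribo-seq, where the chaperone Hspa5 was higher (1.94 against 1.83 on the log2 scale). Of the tRNA ligase complex, which rejoins Xbp1 mRNA after the cut, 2 of 5 rose in mRNA-seq (Zbtb8os and Rtraf, none without the block), and in Ribo-seq none rose and Ddx1 fell by 0.45 on the log2 scale (adjusted p = 0.0492, not called without the block). Its medians were 0.53 and 0.37, and neither these nor the count in mRNA-seq stood far from all genes. Rtraf rose 1.83-fold in mRNA-seq and had a log2 value of 0.21 in Ribo-seq (adjusted p = 0.616). Of IRE1α decay substrates, known from other cell types, only 3 of 8 could be tested, with medians of 0.17 and -0.01. None of the 3 fell, a count too small to set against the shares of all genes. Bloc1s1, the classical substrate, had a log2 value of 0.17 in mRNA-seq (adjusted p = 0.716) and rose by 1.10 in Ribo-seq (adjusted p = 0.0078).

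Among the other clients of S1P and S2P and their regulators, 3 of 7 rose and 1 fell in mRNA-seq at 18 h (none without the block), and 2 rose and 1 fell in Ribo-seq. Over all genes 25.9% rose and 7.69% fell in mRNA-seq and 24.6% and 6.35% in Ribo-seq, so the Ribo-seq count of raised genes is near that of all genes. The medians were 0.58 and 0.01, beside 0.36 and 0.39. Spring1, a cofactor of S1P, rose 2.50-fold in mRNA-seq (adjusted p = 0.00115, and with TMM 0.77 on the log2 scale and adjusted p = 0.112). In Ribo-seq it rose 2.15-fold (adjusted p = 0.0347). Its lowest count in a library was 1 read, so the size of these folds is uncertain. Insig1, which holds the SREBP complex in the ER, rose 2.00-fold and 1.60-fold. Atp6ap2, the prorenin receptor, fell by 1.16 on the log2 scale in mRNA-seq (adjusted p = 0.000252) and by 1.22 in Ribo-seq (adjusted p = 3.11e-11). The proteases themselves did not pass, as described above.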

How the data were processed

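The authors filtered reads by quality and by length (15 to 40 bases) and aligned them with Bowtie2 to the RNA reference of GRCm38. The authors deposited raw read counts per RefSeq transcript, and RPKM, for which those counts were divided by transcript length and library total. RPKM recomputed from the counts differed from the deposited values by at most 0.00111 (log2). Of 30741 transcripts, 30227 matched RefSeq with their version and 478 without it, and all of these were summed per gene. The remaining 36 had no match. Each was kept as an entry of its own, within the 17208 genes and the library totals.

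Counts of genes with reads in all 18 libraries were tested with edgeR 4.0.16 (quasi-likelihood, R 4.3.3), with library totals, all treatments of an assay in a fit and the experiment as a block, and occupancy as the interaction of assay and treatment. Benjamini-Hochberg adjustment ran over 7794 genes, with 0.05 as threshold. The labels give the experiment number as the batch. To check the pairing, deviations from treatment means were correlated within experiments (mean r 0.567 over 9 mRNA-seq pairs, all over 0.1, and 0.139 over 9 Ribo-seq pairs, 8 over 0.1). Shares carry Wilson 95% intervals, for counting error only, and single values exact permutation tests.

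Named are all 10 genes, the up to 3 genes per list with the largest mRNA-seq change at 18 h that passed with 1 sign in all experiments, and the 3 genes most like each of 4 members. Other named list genes were chosen after their values were seen. The members and lists were chosen with earlier results of these data known. Alternatives were TMM, DESeq2 1.42.0, limma 3.58.1 on log2(RPKM + 0.5), other filters, totals without Lars2 (added after the data were seen) or without Ins1, Ins2 and Lars2, no block, each experiment left out, and the experiment 2 controls left out or exchanged. Python 3.11.15 was used for tables and figures.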

Additional observations from a re-analysis of the deposited data

How the results depend on the processing

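The counts of the 10 genes that passed moved as follows. In mRNA-seq at 18 h against control (7 as reported), TMM and DESeq2 gave 4 each, exchanging the control assays of experiment 2 gave 3, and leaving out 1 experiment gave 2 to 6 (2 without experiment 3). In mRNA-seq at 18 h against 1 h (7), the exchange gave 4 and leaving out 1 experiment 5 to 7. Without the replicate block both mRNA-seq counts were 0, and that in Ribo-seq at 18 h against 1 h was 4. In Ribo-seq at 1 h (1), limma and the exchange gave 0, and leaving out 1 experiment gave 1 each time. At 18 h against control (7), the exchange gave 2 and leaving out 1 experiment 6 to 7, and at 18 h against 1 h (6), limma gave 3, DESeq2 2, the exchange 0 and leaving out 1 experiment 3 to 4 (3 without experiment 2). Ribosome occupancy at 1 h (0) became 1 with DESeq2. All other counts of members stayed within 1.5 times the reported ones.

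Of 1260 fold changes of the members over all alternatives, 1162 kept their side of the threshold, 95 lost the call, 3 gained it and none of those called reversed. The gains were Creb3l2 at 18 h in mRNA-seq without Lars2 (0.77), Mbtps2 at 18 h against 1 h in mRNA-seq without experiment 1 (1.36) and Xbp1 occupancy with DESeq2 (0.89). The opposite sign was seen in 94 values, none of them past the threshold. Over all genes, 2018 rose and 599 fell in mRNA-seq at 18 h with the block, and 113 and 41 without it. The depth of the Ribo-seq libraries at 18 h limits Mbtps2, Eif2ak3 and Mbtps1 most.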

Other observations

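The genes most like each member were taken by the correlation of log2(RPKM + 0.5) over the 18 libraries, after the mean of each experiment within each assay was removed, among 5818 genes with a mean RPKM of at least 5. These are descriptions, since the libraries share treatments, experiments and depth. For Ern1 they were Nudcd2 (r = 0.952), Slc7a1 (0.948) and Rars (0.948), with a median of 0.440 over all genes searched. For Eif2ak3 they were Ccdc97 (0.912), Nbas (0.907) and Rtl8b (0.906), with a median of 0.365. For Atf6 they were Eid2 (0.986), Arf4 (0.969) and Ssr3 (0.968), with a median of 0.514, and Ssr3 is also on the list of XBP1s targets. For Xbp1 they were Cdkn1a (0.974), Ubb (0.972) and Ifrd1 (0.971), with a median of 0.465. The members closest to these 4 were Creb3 for Xbp1 (r = 0.929), Atf6 for Ern1 and Ern1 for Atf6 (0.923) and Atf6 for Eif2ak3 (0.840), while Ern1 and Xbp1 had r = 0.789.

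Of the 7 paralogues of the members, 1 had reads in all 18 libraries. Ern2, which encodes IRE1β, known from the gut, had 1 read in 1 of 18 libraries, and Creb3l4 had 3 reads in 1 library. Creb3l1 had reads in 15 libraries (at most 22) and Creb3l3 in 17 (at most 127), so both missed the filter. Of the other eIF2α kinases, Eif2ak2 and Eif2ak4 had reads in 17 libraries (at most 12), and Eif2ak1 had 7 to 87 reads in all 18. Eif2ak1 did not pass at 18 h in mRNA-seq (0.30 on the log2 scale, adjusted p = 0.54) or Ribo-seq (0.58, adjusted p = 0.261).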
